A study of Mus musculus with 10 samples.

Results

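A set of 10 genes that mark the vessels of lymphoid organs were read across the spleens and lymph nodes of mice carrying transferred CD4+ T cells. Lyve1, Prox1, Flt4 and Pdpn stood for lymphatic endothelium, Pecam1, Cdh5, Kdr and Vwf for blood endothelium, and Glycam1 and Madcam1 for high endothelial venules. They were found by gene symbol among 19505 genes on the array. Each of the 10 had a single probe set, and all were among the 13393 genes that passed the filter on low signals, although Lyve1 and Glycam1 passed through their lymph node arrays alone.

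The RNA came from mice described as immunocompromised that had received wild-type CD4+ T cells transduced with oncogenic Vav1 or, as the control, with GFP, and that were analysed 6 months after transfer. VAV1 is an adaptor and guanine nucleotide exchange factor that works below the T cell receptor, and the series concerns VAV1 mutations found in T cell lymphoma. The 10 arrays comprised 4 oncogenic Vav1 spleens, 2 GFP spleens, 2 oncogenic Vav1 lymph nodes and 2 GFP lymph nodes. They came from 7 animals, of which ONCO2 and ONCO3 (oncogenic Vav1) and CTL2 (GFP) gave both organs. The labels give the strain as C57BL/10 without saying whether it is that of the donor cells or of the host. They do not state the age of the animals, the mutation in the Vav1 construct or which lymph nodes were taken.

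Endothelium lines all vessels, and cells of blood and lymphatic vessels share many genes. Lymphatic identity is set by the transcription factor PROX1, and growth of lymphatic vessels runs through VEGFR3, the product of Flt4, whereas growth of blood vessels runs mainly through VEGFR2, the product of Kdr. High endothelial venules are the postcapillary venules through which lymphocytes enter lymph nodes, and they carry mucin-like ligands for homing receptors of lymphocytes. The spleen has no such venules, and in it MAdCAM-1 lines the marginal sinus.

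Values are log2 signals from a single-colour array, so a difference of 1 is a doubling of signal, and signals of different probe sets cannot be set against each other. The array medians lay between 6.27 and 6.41. A level is called near background where the mean of a group was under the 40th percentile of each of its arrays, and these percentiles ran from 5.64 to 5.84. By label the samples are CD4+ T cells, but a list of B cell genes averaged 9.35 to 11.09 over the arrays and a list of T cell genes 7.82 to 9.57, both above those percentiles. In such RNA, fewer vessel cells and less vessel RNA per cell cannot be told apart. A change is called where the Benjamini-Hochberg adjusted p of limma was under 0.05. Nothing states whether arrays of a group came from separate experiments, so p-values measure the spread between these samples, and 3 of the 4 groups hold 2 arrays.

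In lymph node, 3 of 4 blood vessel genes, 1 of 4 lymphatic genes and Glycam1 were lower with oncogenic Vav1, and Madcam1 was higher. Lyve1, Pecam1, Cdh5, Kdr and Glycam1 fell in oncogenic Vav1 lymph nodes against GFP lymph nodes, by 1.87-fold for Kdr to 6.16-fold for Lyve1, and Madcam1 rose 2.83-fold. That made 6 of 10 genes called, where 18.7% of all tested genes were called in this comparison, 7.87% as higher and 10.8% as lower. Glycam1 passed the filter with both GFP lymph node arrays, 1 oncogenic Vav1 lymph node array and no spleen array. It thus entered mainly through the group where it was high, and its place in these counts is a description. The count was also 6 without the filter. The median log2 difference of the 10 was -0.84, beside -0.0154 over all tested genes. In spleen, 2 of 10 were called, Madcam1 as higher and Pecam1 as lower, near the 26.8% of all tested genes called there, 17.1% as higher and 9.77% as lower. Their median log2 difference in spleen was 0.0925, beside 0.00188 over all tested genes. In lymph node the arrays of the constructs did not overlap for 1 gene that was higher and 7 that were lower with oncogenic Vav1, where 24.2% of all tested genes were apart upwards and 28.8% downwards. In spleen they were apart for 1 gene each way, where 30.3% were apart upwards and 25.2% downwards.

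**Figure D1:**
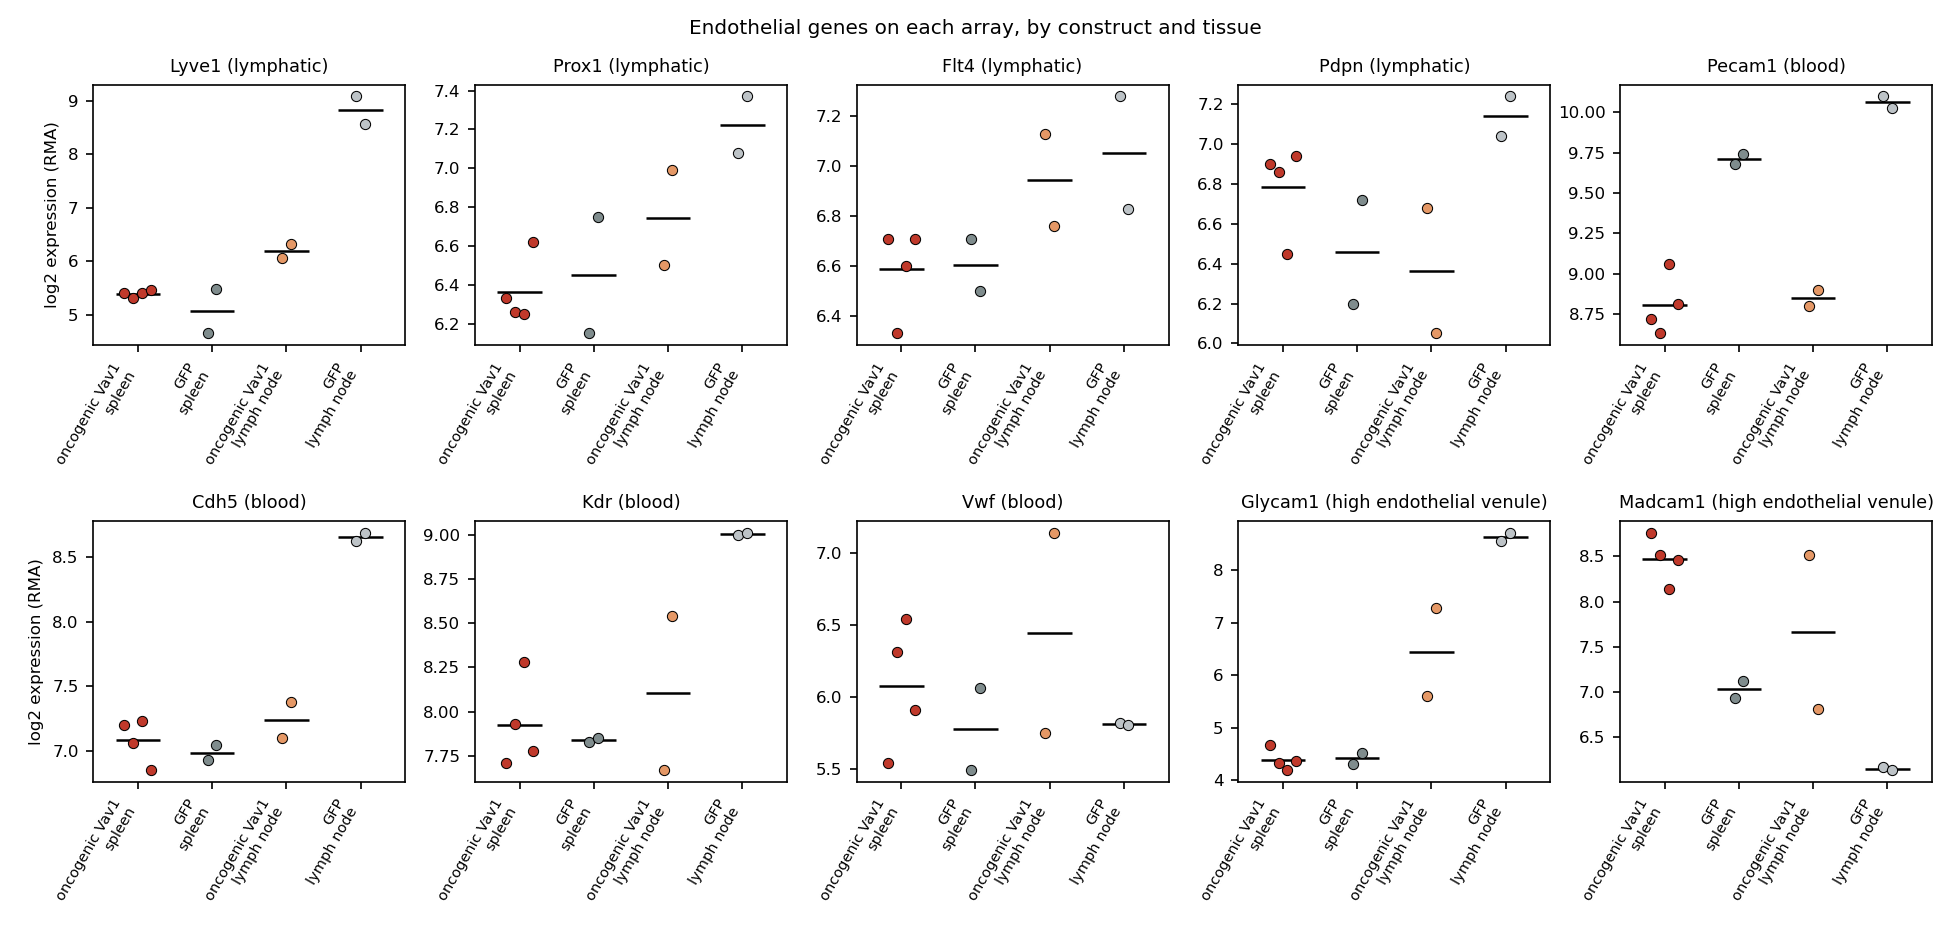
Log2 signal of the 10 vessel genes on each array, by group, with a panel per gene; points are arrays, lines are group means and each panel has its own scale. Lyve1 sits at 6.06 and 6.33 in oncogenic Vav1 lymph nodes and at 8.56 and 9.08 in GFP lymph nodes, and Madcam1 sits higher with oncogenic Vav1 in both organs.

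Lyve1 encodes a hyaluronan receptor of lymphatic endothelium that some tissue macrophages also carry. Its log2 signal was 6.06 and 6.33 in oncogenic Vav1 lymph nodes, against 9.08 and 8.56 in GFP lymph nodes. The arrays did not overlap, and the difference was -2.62 (SE 0.26, n = 2 each, limma adjusted p = 0.00013). In spleen it was 5.41, 5.31, 5.40 and 5.46 with oncogenic Vav1, against 4.65 and 5.49 with GFP, which is near background in both. The log2 difference in spleen was 0.33, with a 95% interval of -0.18 to 0.83, and the construct effect in lymph node differed from that in spleen by -2.95 (SE 0.35, limma adjusted p = 0.00071).

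The other lymphatic genes showed smaller differences that passed no threshold. Prox1 was at 6.50 and 6.99 in oncogenic Vav1 lymph nodes, against 7.08 and 7.37 in GFP lymph nodes. These arrays did not overlap, but the log2 difference of -0.48 (95% interval -1.01 to 0.05) did not pass (limma adjusted p = 0.21). Pdpn, which encodes podoplanin, a mucin-type protein that reticular stromal cells also make, was at 6.68 and 6.05 in oncogenic Vav1 lymph nodes, against 7.04 and 7.24 in GFP lymph nodes. Its difference of -0.77 (95% interval -1.34 to -0.21) also fell short, with a limma adjusted p of 0.06, and it passed with the negative control median as a covariate (limma adjusted p = 0.0038). It also passed without replicate 1 of the oncogenic Vav1 lymph nodes (-1.09, limma adjusted p = 0.005), where 1 array is left in that group and is assumed to vary like the other groups. Flt4 overlapped between the constructs, at 7.13 and 6.76 with oncogenic Vav1 and 7.28 and 6.83 with GFP, and its interval was -0.57 to 0.35. In spleen, Prox1, Flt4 and Pdpn overlapped between the constructs, with log2 differences of -0.09, -0.02 and 0.32. Lyve1 was thus the 1 lymphatic gene of the 4 that was called in lymph node, and none of the 4 was called in spleen.

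Among the blood vessel genes, Pecam1 and Cdh5, both of which encode junction proteins, kept their calls in lymph node under all 22 alternatives tried. Pecam1, which platelets and leukocytes carry as well, was at 8.80 and 8.90 in oncogenic Vav1 lymph nodes, against 10.10 and 10.03 in GFP lymph nodes. It was also lower in spleen, at 8.72, 8.63, 9.06 and 8.81 with oncogenic Vav1, against 9.68 and 9.74 with GFP. The arrays were apart in both organs, with log2 differences of -1.21 in lymph node (SE 0.15, limma adjusted p = 0.00042) and -0.91 in spleen (SE 0.13, limma adjusted p = 0.0013). The effects of the construct in the organs differed by -0.30 (95% interval -0.75 to 0.14), which did not pass (limma adjusted p = 0.36).

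Cdh5, the gene for VE-cadherin and the most endothelium-restricted of the blood vessel genes here, was at 7.10 and 7.38 in oncogenic Vav1 lymph nodes, against 8.63 and 8.69 in GFP lymph nodes. In spleen it was at 7.20, 7.06, 7.23 and 6.85 with oncogenic Vav1, against 6.93 and 7.04 with GFP. The groups were apart in lymph node and overlapped in spleen. The log2 difference was -1.42 in lymph node (SE 0.17, limma adjusted p = 3e-04) and 0.10 in spleen (95% interval -0.22 to 0.42). These effects differed by -1.52 (SE 0.22, limma adjusted p = 0.0022).

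Kdr was at 7.67 and 8.54 in oncogenic Vav1 lymph nodes, against 9.00 and 9.01 in GFP lymph nodes, so the lower pair varied widely around its mean. The difference was -0.91 (SE 0.26, limma adjusted p = 0.036), and it ranged from -1.34 to -0.47 when single arrays were left out. Without replicate 1 of the oncogenic Vav1 lymph nodes the limma adjusted p was 0.094, without either GFP lymph node array it was 0.16, without either GFP spleen array it was 0.058, and without replicate 2 or 4 of the oncogenic Vav1 spleens it was 0.054. In spleen, Kdr was at 7.71, 7.93, 8.28 and 7.78 with oncogenic Vav1, against 7.83 and 7.85 with GFP, and the groups overlapped. Vwf, for the clotting protein von Willebrand factor made by endothelium and megakaryocytes, was at 5.75 and 7.14 in oncogenic Vav1 lymph nodes, against 5.82 and 5.80 in GFP lymph nodes. Its groups overlapped, with a log2 difference of 0.63 (95% interval -0.31 to 1.58); without replicate 1 of the oncogenic Vav1 lymph nodes, 1 array against 2, it was 1.33 (limma adjusted p = 0.0094). In spleen Vwf was at 5.54 to 6.54 with oncogenic Vav1 and at 5.49 and 6.06 with GFP, so these groups overlapped too.

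**Figure D2:**
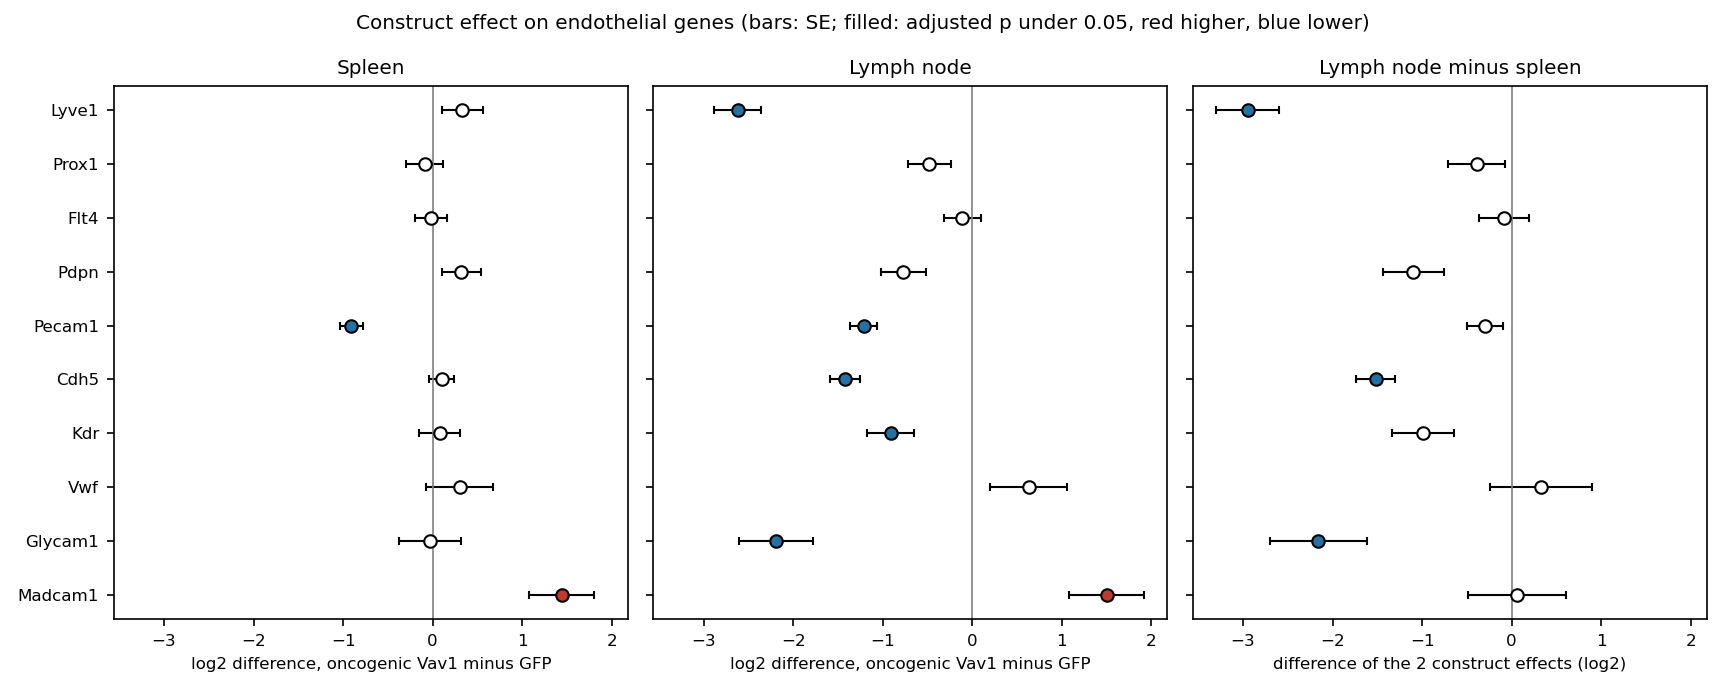
Log2 difference of oncogenic Vav1 minus GFP for each vessel gene, in spleen and in lymph node, and the difference of these effects (lymph node minus spleen), on a shared scale; points are limma estimates, bars standard errors and filled points have an adjusted p under 0.05. Lyve1 at -2.62 and Glycam1 at -2.19 lie farthest below 0 in lymph node, while Madcam1 lies at 1.44 in spleen and 1.50 in lymph node.

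The genes of high endothelial venules, Glycam1 and Madcam1, moved in opposite directions in lymph node. The 250 bases before the start of each are printed because of that contrast, as held by RefSeq for GRCm38.p6, and were searched for a motif like that of NF-kappaB. This motif was GGG, any 3 bases and TTCC, on either strand, and it is shown in capitals where it matched. TATAAA and the forkhead core TAAACA were searched too and matched neither window, and the ETS core GGAA matched 7 times in Glycam1 and 8 times in Madcam1. Glycam1 is on the minus strand at chr15:103565082-103565331 and Madcam1 on the plus strand at chr10:79664309-79664558, each written 5′ to 3′ towards its gene.
Glycam1: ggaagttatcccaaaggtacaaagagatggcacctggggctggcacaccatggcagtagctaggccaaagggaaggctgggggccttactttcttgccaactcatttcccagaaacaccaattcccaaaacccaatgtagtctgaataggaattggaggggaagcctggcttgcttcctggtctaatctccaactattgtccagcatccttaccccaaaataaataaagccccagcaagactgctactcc
Madcam1: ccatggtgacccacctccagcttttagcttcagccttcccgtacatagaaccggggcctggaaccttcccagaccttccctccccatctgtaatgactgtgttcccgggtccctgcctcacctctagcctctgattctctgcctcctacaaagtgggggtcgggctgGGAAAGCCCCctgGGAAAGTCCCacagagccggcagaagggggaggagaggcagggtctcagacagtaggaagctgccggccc
The Madcam1 window held 2 matches, both on the strand opposite to the gene and read here as GGAAAGCCCC and GGAAAGTCCC, starting 83 and 70 bases before the gene's start. The Glycam1 window held none. Of 32851 mouse windows of this length, 4.65% held at least 1 match and 0.146% held 2 or more. GGAA was in 93.4% of these windows, TATAAA in 12.4% and TAAACA in 12.0%, and each match to the longer motif in the Madcam1 window overlaps a GGAA. A match describes the letters alone, and no binding was measured.

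Glycam1 encodes a secreted mucin that serves as a ligand for L-selectin. Its log2 signal was 5.61 and 7.28 in oncogenic Vav1 lymph nodes, against 8.56 and 8.71 in GFP lymph nodes. The groups were apart, although the oncogenic Vav1 arrays were far from each other and the lower of them lay under its array's 40th percentile. The difference was -2.19 (SE 0.41, limma adjusted p = 0.0045), and it ranged from -3.02 to -1.36 as either oncogenic Vav1 lymph node array was left out. In spleen, Glycam1 was near background on all arrays, at 4.20 to 4.68 with oncogenic Vav1 and at 4.32 and 4.53 with GFP. The construct effects in the organs differed by -2.16 (SE 0.54, limma adjusted p = 0.033), a call lost in 8 of 21 alternatives, among them leaving out either GFP lymph node array (0.11 and 0.13) or either GFP spleen array (0.13 and 0.083).

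Madcam1 encodes an adhesion protein that binds the integrin alpha4beta7 of lymphocytes. It was at 8.51 and 6.81 in oncogenic Vav1 lymph nodes, against 6.17 and 6.14 in GFP lymph nodes. In spleen it was at 8.76, 8.52, 8.14 and 8.46 with oncogenic Vav1, against 6.94 and 7.12 with GFP. Every oncogenic Vav1 array was thus above every GFP array of the same organ, and the spread was widest in oncogenic Vav1 lymph nodes, where the arrays were 8.51 and 6.81. The log2 differences were 1.50 in lymph node (SE 0.42, limma adjusted p = 0.031) and 1.44 in spleen (SE 0.36, limma adjusted p = 0.016), and they differed by 0.06 (95% interval -1.16 to 1.29).

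The Madcam1 values changed as single arrays were left out and, in spleen, as a technical measure was added to the fit. In lymph node the difference was 0.65 without replicate 1 and 2.35 without replicate 2 of the oncogenic Vav1 group, and the call was lost without GFP lymph node replicate 1 (limma adjusted p = 0.14) or 2 (0.15), without either GFP spleen array (0.052 each) and without oncogenic Vav1 spleen replicate 4 (0.053). In spleen the call was lost without GFP spleen replicate 1 (limma adjusted p = 0.13) or 2 (0.073). The median of the array's negative control probe sets was 5.43 to 5.55 in oncogenic Vav1 spleens, against 5.69 and 5.87 in GFP spleens. With that median as a covariate, the difference in spleen was 0.09 for Madcam1 (limma adjusted p = 0.88) and -0.73 for Pecam1 (limma adjusted p = 0.061). Because the median did not overlap between the constructs in spleen, its part cannot be told apart from that of the construct there.

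The construct effect was tested for a difference between the organs across all genes, and 3 of 10 vessel genes were called, all as more negative in lymph node, where 9.22% of all tested genes were called, 8% as more negative and 1.22% as more positive. These were Lyve1, Cdh5 and Glycam1. Lyve1 and Glycam1 entered the test through lymph node arrays alone and were near background in spleen, so for them the difference of effects repeats the fall in lymph node, and the count is not read against these shares. The median over the 10, which includes Lyve1 and Glycam1 and is likewise a description, was -0.691, beside -0.012 over all tested genes. Kdr at -0.99 (limma adjusted p = 0.1) and Pdpn at -1.10 (limma adjusted p = 0.07) did not pass, and each passed in 3 of 21 alternatives. The Kdr value was -1.72 with the negative control median as a covariate (limma adjusted p = 0.012), -1.42 without replicate 2 of the oncogenic Vav1 lymph nodes (limma adjusted p = 0.0019) and -1.31 without both arrays of ONCO3 (limma adjusted p = 0.00029), and -0.55 at its smallest when single arrays were left out. The Pdpn value was -1.21 after centring each array on its median (limma adjusted p = 0.047), -1.41 without replicate 1 of the oncogenic Vav1 lymph nodes (limma adjusted p = 0.0045) and -0.89 without ONCO3 (limma adjusted p = 0.04). Madcam1 at 0.06 did not pass either, and its value turned to -0.79 (limma adjusted p = 0.042) without replicate 1 of the oncogenic Vav1 lymph nodes and to 0.91 (limma adjusted p = 0.037) without replicate 2.

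The organs were next compared within each construct. These comparisons use the same lymph node and spleen arrays as those above, so they are not independent of them. The main fit treats all arrays as independent, although ONCO2, ONCO3 and CTL2 gave both organs. In GFP mice, Lyve1, Prox1, Cdh5, Kdr and Glycam1 were higher in lymph node than in spleen, which made 5 of 10 called where 17.7% of all tested genes were called, 12.5% as higher and 5.21% as lower. The organs did not overlap for 8 genes that were higher in lymph node and 1 that was lower, where 34.2% of all tested genes were apart upwards and 33% downwards. Lyve1 and Glycam1 passed the filter on low signals through lymph node arrays alone, which fixes that they were higher there, so the count is given as a description and is not read against these shares. The median of the 10, which includes Lyve1 and Glycam1 and is likewise a description, was 0.726, beside -0.0118 over all tested genes. Glycam1 was higher by 4.21 (SE 0.41, limma adjusted p = 6.2e-05) and Lyve1 by 3.75 (SE 0.26, limma adjusted p = 8.2e-06), both against spleen levels near background, so that the size of each rests on the background of the array.

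Cdh5 averaged 8.66 ± 0.04 in GFP lymph nodes and 6.98 ± 0.07 in GFP spleens (SD, n = 2 each), a log2 difference of 1.68 (SE 0.17, limma adjusted p = 7.2e-05). Kdr averaged 9.01 ± 0.01 in GFP lymph nodes and 7.84 ± 0.02 in GFP spleens (SD, n = 2 each), a difference of 1.17 (SE 0.26, limma adjusted p = 0.012). Both junction cadherin and growth factor receptor were thus higher in the lymph node of the control mice, with no overlap between the organs. The Kdr call was lost without any 1 of the 4 GFP arrays (limma adjusted p 0.059 to 0.08). Prox1 at 0.77 (limma adjusted p = 0.049) kept its call in 11 of 22 alternatives. It lost the call with the animal as a random block (limma adjusted p = 0.062), where 4 vessel genes were called. Madcam1 was at 6.17 and 6.14 in GFP lymph nodes, against 6.94 and 7.12 in GFP spleens, without overlap, but its difference of -0.87 (95% interval -1.80 to 0.05) did not pass (limma adjusted p = 0.18). Madcam1 passed in 6 of 22 alternatives, among them the GFP arrays alone (limma adjusted p = 0.0022) and the negative control median as a covariate, where the difference was -2.42 (limma adjusted p = 0.0034). That median was 5.46 and 5.38 in GFP lymph nodes, against 5.87 and 5.69 in GFP spleens. Its part therefore cannot be told apart from that of the organ.

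In oncogenic Vav1 mice none of the 10 genes was called between lymph node and spleen by limma, where 0.0672% of all tested genes were called, and 3 had an unadjusted p under 0.05. The arrays did not overlap for 3 genes, all higher in lymph node, where 7.33% of all tested genes were apart upwards and 8.03% downwards. These were Lyve1, Flt4 and Glycam1. Because Lyve1 and Glycam1 passed the filter through lymph node arrays alone, the count is a description and is not read against these shares. The genes with an unadjusted p under 0.05 were Glycam1 at 2.05 (limma adjusted p = 0.09), Lyve1 at 0.80 (limma adjusted p = 0.39) and Madcam1 at -0.81 (limma adjusted p = 0.48). The median of the 10, which includes Lyve1 and Glycam1 and is likewise a description, was 0.269, beside -0.0121 over all tested genes. Cdh5 averaged 7.24 ± 0.20 in oncogenic Vav1 lymph nodes (SD, n = 2) and 7.09 ± 0.17 in oncogenic Vav1 spleens (SD, n = 4), a difference of 0.15 (95% interval -0.17 to 0.47). Without replicate 1 of the oncogenic Vav1 lymph nodes, from animal ONCO2, 6 of the 10 genes were called, and 3574 of all tested genes against 9 with all arrays; without replicate 2 the count of vessel genes was 1.

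**Figure D3:**
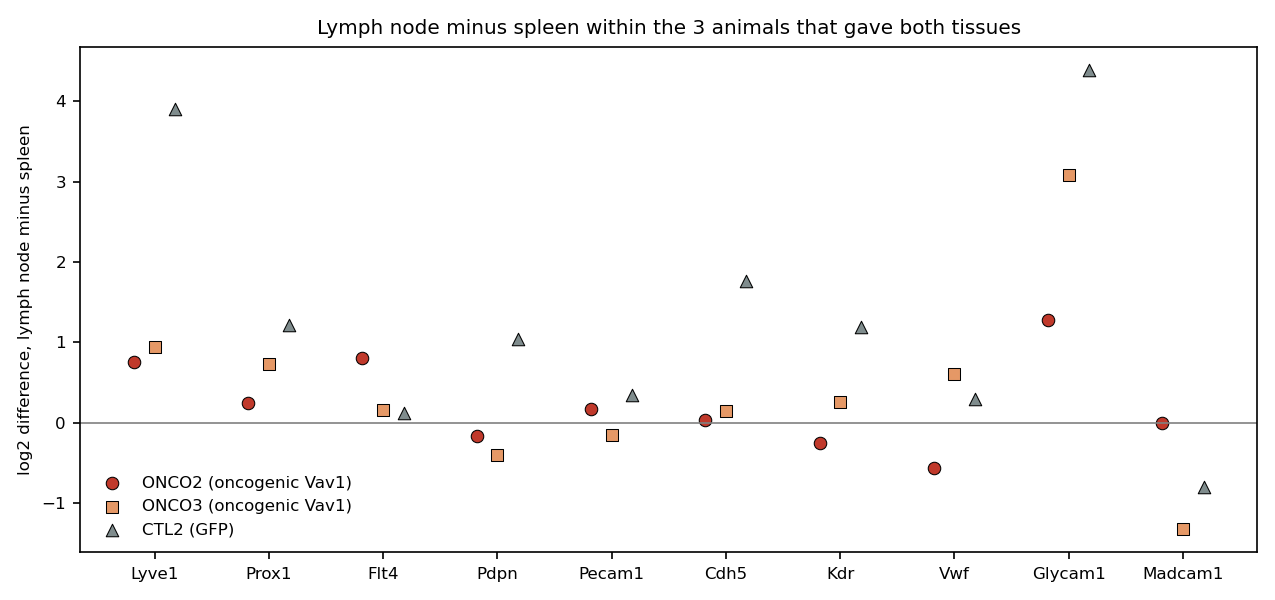
Lymph node minus spleen, as a log2 difference, for each vessel gene in the animals that gave both organs: ONCO2 and ONCO3 with oncogenic Vav1 and CTL2 with GFP. Lyve1 is at 0.75 and 0.94 in the oncogenic Vav1 animals and at 3.91 in CTL2.

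Within single animals the same differences could be read without a test, since 1 GFP animal gave both organs. Cdh5 was higher in lymph node than in spleen by 0.03 in ONCO2 and 0.14 in ONCO3, against 1.76 in CTL2. Glycam1 was higher in lymph node by 1.28 in ONCO2 and 3.08 in ONCO3, against 4.39 in CTL2. Madcam1 was at the same level in both organs of ONCO2 (-0.01), whereas lymph node was below spleen in ONCO3 (-1.33) and in CTL2 (-0.80). The order of the animals for Cdh5, Lyve1 and Glycam1 was therefore ONCO2, ONCO3 and CTL2, low to high. Prox1 and Kdr had the same order. Flt4 ran the other way, at 0.80 in ONCO2, 0.16 in ONCO3 and 0.12 in CTL2. Pdpn, Pecam1, Vwf and Madcam1 gave other orders.

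Other genes of the same vessel types were then counted. Of all tested genes, 18.7% were called in lymph node, 26.8% in spleen and 9.22% for the difference between organs. The counts of this and the later lists are descriptions to be read beside these shares. Exceptions are stated where a gene entered the test through the group where it was high. In lymph node, 9 of 22 tested genes of blood endothelium fell with oncogenic Vav1 and none rose, with a median log2 difference of -0.51. In spleen 3 rose and 3 fell, near the share of all tested genes called there, with a median of 0.01. For the difference between organs 6 were called, all more negative in lymph node. Mcam, the gene for the adhesion protein CD146, averaged 5.99 ± 0.13 in oncogenic Vav1 lymph nodes and 8.10 ± 0.14 in GFP lymph nodes (SD, n = 2 each), a difference of -2.11 (limma adjusted p = 0.00011). Cldn5, for the tight junction protein claudin-5, was lower by 2.48-fold (limma adjusted p = 0.00053), Mmrn2, for an extracellular matrix glycoprotein, by 2.09-fold (limma adjusted p = 0.0027) and Gpihbp1, which anchors lipoprotein lipase to capillaries, by 2.01-fold (limma adjusted p = 0.0021).

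Of other lymphatic genes, 9 of 12 were tested, and in lymph node 1 rose and 2 fell with oncogenic Vav1 (median 0.39). Ccl21a, a chemokine gene of lymphatic endothelium, venules and reticular stroma, averaged 9.60 ± 0.23 in oncogenic Vav1 lymph nodes and 12.02 ± 0.01 in GFP lymph nodes (SD, n = 2 each), a difference of -2.43 (limma adjusted p = 0.0014). Ccl21a was lower in spleen as well, by 3.38-fold (limma adjusted p = 0.0038). Thy1, which T cells also express, fell 2.84-fold in lymph node (limma adjusted p = 0.011). Itga9, an integrin gene needed for lymphatic valves, rose 2.01-fold in lymph node (limma adjusted p = 0.0065) and 2.22-fold in spleen (limma adjusted p = 0.0016). The lymphatic list thus held calls in both directions, in spleen 1 each way with a median of 0.05.

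Of other genes of high endothelial venules, 9 of 12 were tested, and in lymph node 1 rose and 1 fell (median 0.33). Cd34, which encodes a sialomucin of venules and of many other vessels, averaged 7.51 ± 0.15 in oncogenic Vav1 lymph nodes and 8.85 ± 0.17 in GFP lymph nodes (SD, n = 2 each), a difference of -1.35 (limma adjusted p = 0.0011). Gcnt1, for an enzyme that builds branched O-glycans and that activated lymphocytes also use, rose by 1.16 in lymph node (limma adjusted p = 0.013) and by 0.69 in spleen (limma adjusted p = 0.047), which was the 1 call of this list in spleen. Chst4, a sulfotransferase gene used to mark these venules, did not pass the filter. Its level was 4.28 to 4.43 in oncogenic Vav1 lymph nodes and 4.72 to 4.96 in GFP lymph nodes, below the 40th percentile on each array.

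Of the ligands that drive vessel growth and venule upkeep, 3 of 10 tested fell in lymph node and none rose (median -0.59). They were Vegfb, a ligand of VEGFR1, at -0.58 (limma adjusted p = 0.023), Pgf, for placental growth factor, at -0.66 (limma adjusted p = 0.031), and Ltb, the lymphotoxin beta gene whose product maintains high endothelial venules, at -0.96 (limma adjusted p = 0.035). Pgf passed the filter through the GFP lymph node arrays alone, where it was high, and was near background in the other groups. Its place in this count is therefore a description. In spleen 1 fell, Vegfd, a ligand of VEGFR3, at -0.68 (limma adjusted p = 0.041), and the median was -0.14. Vegfa and Vegfc, the main ligands of VEGFR2 and VEGFR3, were not called in either organ and are named after their values were seen. In lymph node they were at -0.70 (limma adjusted p = 0.059) and -0.07 (limma adjusted p = 0.84), as log2 differences.

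**Figure D4:**
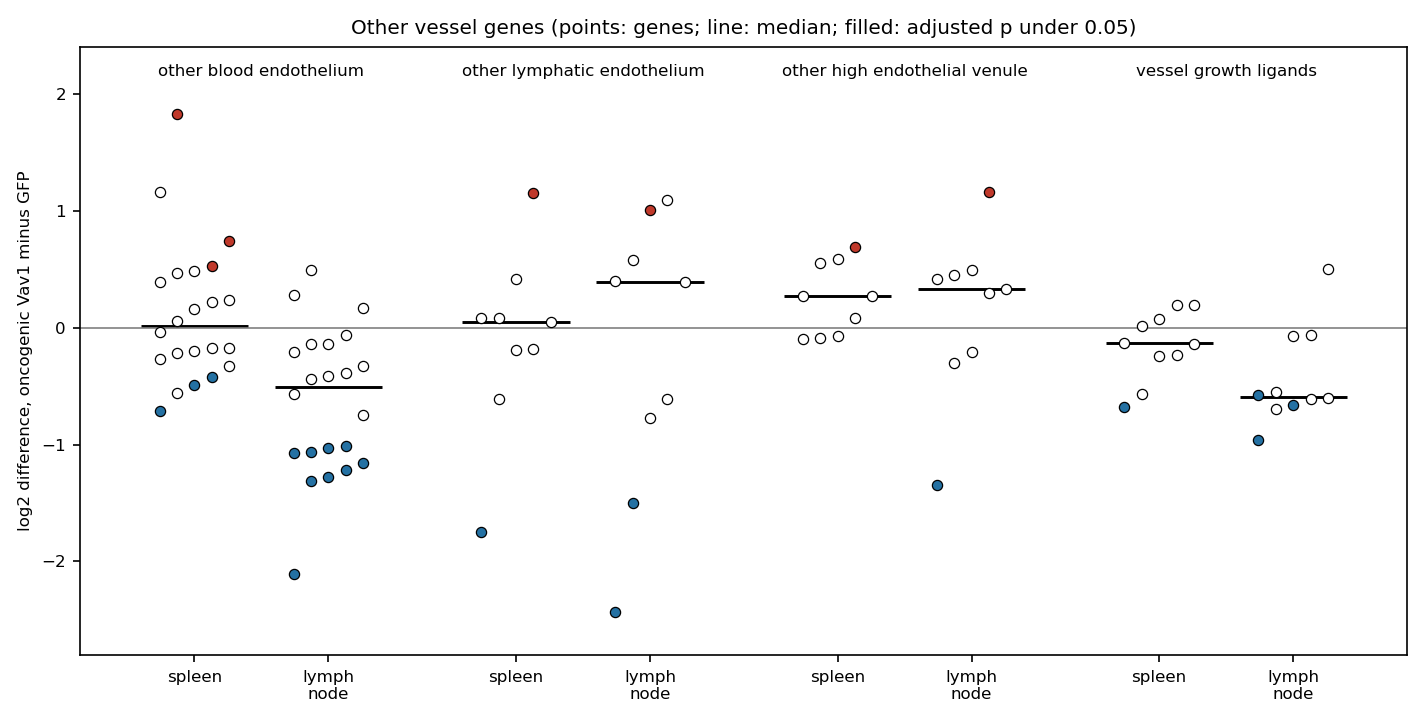
Log2 difference of oncogenic Vav1 minus GFP for the tested genes of 4 further vessel lists, in spleen and lymph node; points are genes, lines are medians and filled points have an adjusted p under 0.05. In lymph node the blood endothelium list lies mostly below 0, with 9 of 22 called, while in spleen its median is 0.01.

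Genes of other cell types moved in lymph node alongside the vessel genes. All 11 tested fat cell genes fell with oncogenic Vav1, with a median of -2.83, and their mean level over the list was 6.90 to 7.81 in oncogenic Vav1 lymph nodes and 10.42 to 10.53 in GFP lymph nodes. Ucp1 and Cidea passed the filter through the GFP lymph node arrays alone, where they were high. Lep entered with these and 1 oncogenic Vav1 lymph node array. The count and median of this list are therefore a description and are not read against the shares above. Ucp1, the uncoupling protein gene of brown fat, was near background at 3.69 and 3.94 in oncogenic Vav1 lymph nodes, against 10.29 and 10.47 in GFP lymph nodes. Fat is rich in capillaries, and the lower blood vessel genes and Lyve1 stand beside this difference on the same arrays. The fat list was also lower in spleen, where 3 of 11 fell and 1 rose and the mean level was 5.39 to 5.53 with oncogenic Vav1, against 6.04 to 6.37 with GFP. The part of fat in the vessel results was not tested.

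Reticular stroma, which makes podoplanin, had 5 of 11 genes lower and none higher in lymph node, and its mean level was 7.59 to 8.08 with oncogenic Vav1, against 8.90 on both arrays with GFP. Among the 5 was Lum, which passed the filter through the GFP lymph node arrays alone and was near background in the other groups. The stroma count is therefore a description and is not read against the shares above. Macrophage genes, beside Lyve1, had 4 of 12 lower and 2 higher in lymph node, at a mean level of 8.37 to 8.54 with oncogenic Vav1, against 8.88 to 8.97 with GFP. Folr2, a folate receptor gene of resident macrophages, fell 13-fold in lymph node (limma adjusted p = 2e-06). It was near background in spleen and passed the filter with both GFP lymph node arrays and 1 oncogenic Vav1 lymph node array. Folr2 thus entered mainly through the group where it was high, and its place in the macrophage count is a description. Platelet and megakaryocyte genes, beside Vwf, had 6 of 9 higher and none lower in lymph node, at 7.68 to 8.54 with oncogenic Vav1 and 6.52 to 6.55 with GFP. All 6 tested erythroid genes rose in lymph node, at a mean level of 8.92 to 10.96 with oncogenic Vav1 and 6.23 to 6.36 with GFP. The wide range of the oncogenic Vav1 lymph node arrays for the platelet and erythroid lists is shown in the plot of list means by array.

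T cell genes had 5 of 9 lower and none higher in lymph node, at 7.82 to 8.86 with oncogenic Vav1 and 9.56 to 9.57 with GFP. B cell genes had 2 of 9 lower in lymph node, at 9.35 to 9.83 with oncogenic Vav1 and 9.90 to 9.94 with GFP. In spleen, beside Pecam1 and Madcam1, 8 of 9 B cell genes fell, at 9.69 to 10.07 with oncogenic Vav1 and 11.04 to 11.09 with GFP. Macrophage genes in spleen had 5 of 12 higher and 2 lower, T cell and stroma genes had calls both ways (1 higher and 1 lower of 9, and 2 higher and 1 lower of 11), and no platelet or erythroid gene was called. The part of these cell types in the vessel results was not tested.

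**Figure D5:**
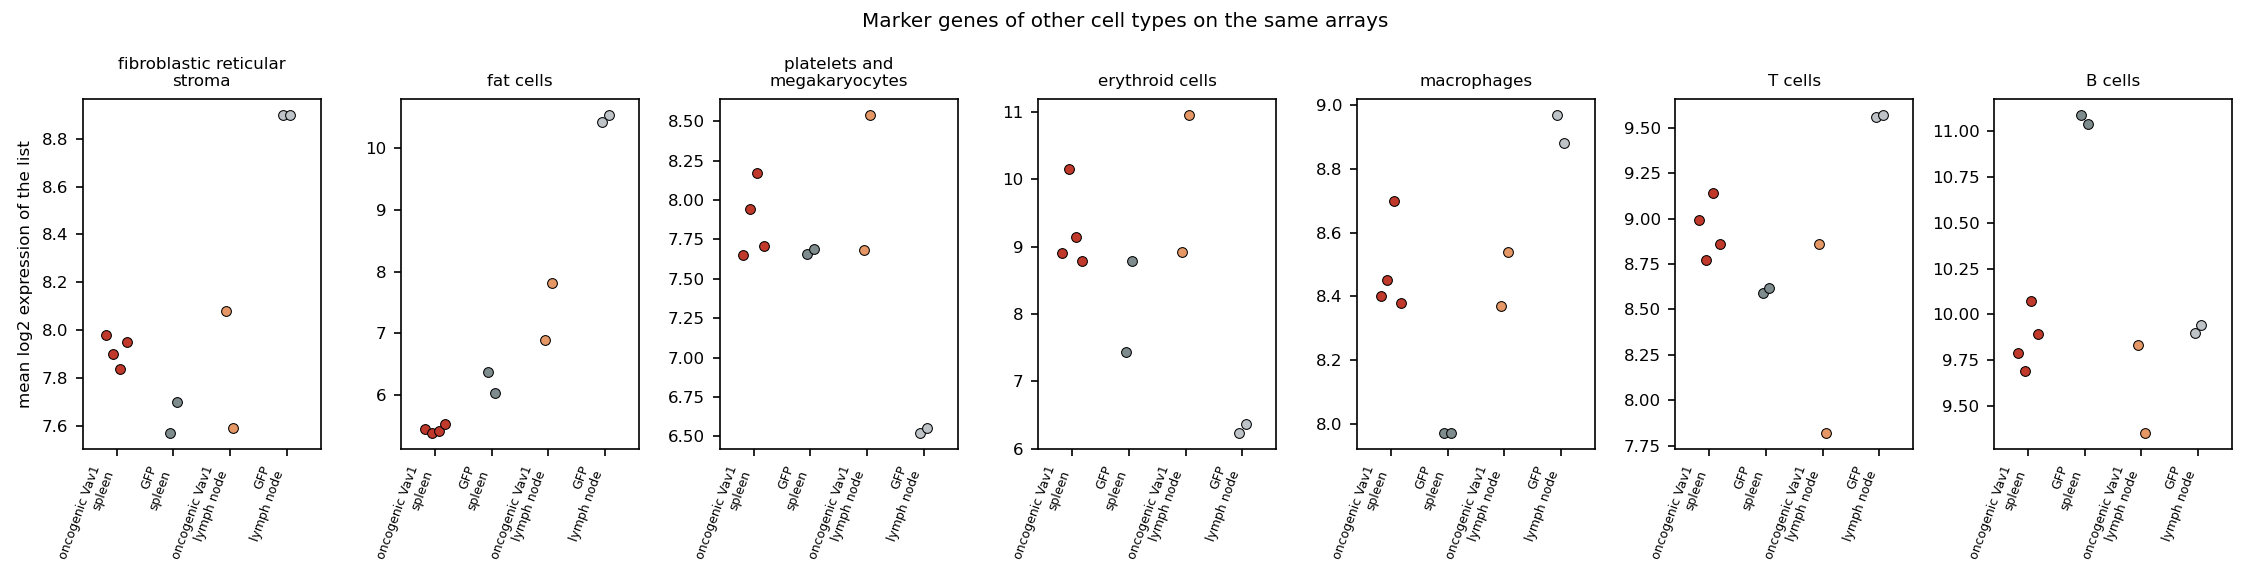
Mean log2 signal of the tested genes of the marker lists of other cell types on each array, by group; points are arrays, and each panel has its own scale. The fat cell list lies at 6.90 to 7.81 in oncogenic Vav1 lymph nodes and at 10.42 to 10.53 in GFP lymph nodes, and the platelet and erythroid lists lie the other way.

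The genes whose pattern over the 10 arrays came closest to each vessel gene were found by the root mean square difference of values centred on the gene's mean, a description with no test. For Cdh5 they were Eci1 and Cldn5, each 0.10 away, and for Kdr they were Abcc9 (0.15) and Myct1 (0.16). Pecam1 was closest to Ppargc1a (0.12) and Prox1 to Vat1l (0.11). For Lyve1 the closest was Rasd1 (0.27), for Glycam1 Lep (0.31) and for Madcam1 Slc16a3 (0.23) and Esm1 (0.26). The values of Lep show how this likeness looks: it was at 5.29 and 6.23 in oncogenic Vav1 lymph nodes, against 8.27 and 8.51 in GFP lymph nodes, and near background in spleen, as Glycam1 was.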

How the data were processed

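Total RNA from samples labelled by spleen or lymph node was measured on single-colour Affymetrix arrays. Whether cells were sorted before extraction is not stated. The deposited values are log2 signals made by the authors with RMA in R (3.6.3), as the submitters' processing notes list. RMA corrects background, makes the distributions of the arrays alike and summarises probes, so a shift of all genes together cannot be seen. The genome build and annotation version are not given in the sources used here.

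Of 29129 probe sets, 19572 carried 1 gene symbol. For each of the 19505 genes the probe set with the highest mean was kept, and genes entered the test if their signal passed the array's 40th percentile on 2 or more arrays. A model of the 4 groups was fitted to all 10 arrays with limma 3.58.1 in R 4.3.3 (lmFit, eBayes with trend, 6 residual degrees of freedom), and p-values were adjusted over all 13393 tested genes by the Benjamini-Hochberg method. Intervals are 95% intervals of the fit. The scripts were tested on simulated data. No 2 arrays were identical, and the small number of arrays limits the precision.

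The vessel genes and the 11 lists of other genes were chosen with earlier results of these data known. All 10 vessel genes are named, and of each other list at most 4 called genes, by smallest p in lymph node, and any gene of high endothelial venules; genes named beyond that rule are said to have been chosen after their values were seen. The alternatives were other filters, normalizations, variance models and covariates, a random block for the animal (block correlation -0.11), a replicate block, and leaving out arrays. Promoter windows came from RefSeq and were held for 6 of the 10 genes.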

Additional observations from a re-analysis of the deposited data

Results flagged for a closer look

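The construct effect differed between the organs, by the interaction test of limma, for Lyve1 by -2.95 (adjusted p = 0.00071), for Cdh5 by -1.52 (adjusted p = 0.0022) and for Glycam1 by -2.16 (adjusted p = 0.033), each more negative in lymph node than in spleen. Lyve1 and Glycam1 were near background in spleen with both constructs, so no fall could be read there. Over the alternatives, the Lyve1 difference ranged from -3.37 to -2.53 and the Cdh5 difference from -1.72 to -1.38.

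Pdpn on 1 of the 4 oncogenic Vav1 spleen arrays, that of ONCO3, was at 6.45, while the highest of the group was 6.94 and the median 6.88. The array's gap to the others was large for the range of the group, though only just past the critical value, as it was for 1 of the 10 vessel genes tried in this group. Chance gives such a gap in about 1 of 20 groups, so with 10 tried it is no sign that the array stands apart.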

How the results depend on the processing

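The lymph node calls of Lyve1, Pecam1 and Cdh5 held in all 22 alternatives, with log2 differences of -2.88 to -2.36, -1.27 to -1.16 and -1.56 to -1.28. Many of the 22, such as other filters and leaving out spleen arrays, can change the p-values but not these differences. Glycam1 kept its call in lymph node in 21 of 22, and lost it with the lymph node arrays alone (adjusted p = 0.13). Kdr lost it in 9 and Madcam1 in 6 of 22. The count of vessel genes called in lymph node was 6 and was 3 with the lymph node arrays alone. In spleen it was 2, and 0 with the negative control median as a covariate, which did not overlap between the constructs there. In GFP mice the count between organs was 5, and 8 with array weights, with the GFP arrays alone, or without both arrays of ONCO3, a setting chosen after seeing the data. In oncogenic Vav1 mice it was 0, and 1 with the negative control covariate. For the difference of construct effects it was 3, and 6 without ONCO3. Leaving out single arrays gave 1 to 2 in spleen, 4 to 7 in lymph node, 3 to 7 between organs in GFP mice, 0 to 6 in oncogenic Vav1 mice and 2 to 5 for the difference of effects. That difference for Madcam1 was 0.06, -0.79 without replicate 1 and 0.91 without replicate 2 of the oncogenic Vav1 lymph nodes. The causes were not tested. Replicate numbers were not used as pairs. Deviations of same-numbered arrays from their group means correlated at 0.04 and 0.30 in spleen and at -0.06 and -0.06 in lymph node. With 2 arrays in each lymph node group, both values there are equal by construction and count as a single check. A fit with the replicate block gave counts of 2, 6, 5, 0 and 2 in the order above, and the Glycam1 difference of effects was then -2.27 (adjusted p = 0.077). Fitting only the groups compared cannot give the difference of effects.

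Over all tested genes, the spleen count of 3596 was 916 with the negative control covariate, the lymph node count of 2500 was 469 with the lymph node arrays alone, and the GFP count between organs of 2377 was 4254 with those arrays alone. The share of calls that were higher in spleen was 63.6%, and 79.8% after centring each array on its median. Signals near background limit what can be read for Lyve1 and Glycam1 in spleen and for Vwf in GFP spleen.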

Other observations

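A pair of other endothelial genes, chosen after their values were seen, went opposite ways in the organs. Ecscr, for an endothelial surface protein, was at 6.34 to 7.07 in oncogenic Vav1 spleens and 4.66 to 5.11 in GFP spleens, a difference of 1.83 (limma adjusted p = 0.00054), while in lymph node it was at 6.19 to 6.51 with oncogenic Vav1 and 7.39 to 7.44 with GFP, a difference of -1.07 (limma adjusted p = 0.014). Erg, for an ETS transcription factor of endothelium, was higher in spleen by 0.53 (limma adjusted p = 0.046) and lower in lymph node by 1.03 on the log2 scale, at 6.85 to 6.92 with oncogenic Vav1 and 7.85 to 7.98 with GFP (limma adjusted p = 0.0058). The construct effects in lymph node and spleen differed by -2.90 for Ecscr (limma adjusted p = 0.00059) and by -1.55 for Erg (limma adjusted p = 0.0055). Ecscr was near background in GFP spleens.

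Eng, which encodes the TGF-beta co-receptor endoglin and is also used by macrophages and erythroid precursors, rose 1.67-fold in spleen (limma adjusted p = 0.0028), and Robo4, a guidance receptor gene of endothelium, fell 1.63-fold there to a level near background (limma adjusted p = 0.02); both were named after their values were seen.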
